A study of Mus musculus with 8 samples.

Results

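The HoxD cluster on mouse chromosome 2 holds 9 genes, Hoxd1, Hoxd3, Hoxd4, Hoxd8, Hoxd9, Hoxd10, Hoxd11, Hoxd12 and Hoxd13, which were chosen by their symbols. They are 9 of the 39 Hox genes of the A, B, C and D clusters and of 55573 genes in all. Hox genes encode homeodomain transcription factors that give cells along the body axis a regional identity. Within a cluster they are switched on in order of position, so that Hoxd1, at the 3′ end, is used early and in front, while Hoxd13, at the 5′ end, is used late and in the tail, the limb buds and the genital tubercle. In the posterior trunk the step from Hox genes of the thorax to those of the lumbar, sacral and tail levels accompanies the change from trunk to tail formation, for which GDF11, a ligand of the TGF-beta family acting through SMAD2, is a known signal in mice.

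The tissue was the posterior trunk of embryos of C57BL/6 mice, cut off behind somite 12 and in front of somite 13 on embryonic day 9.5, and its poly(A) RNA was sequenced. Parents were heterozygous for a Prtg knockout allele. There were 2 wild-type libraries (WT), 3 libraries of Prtg+/- embryos (Het) and 3 of Prtg-/- embryos (KO), and n is 2, 3 and 3 throughout. Prtg encodes protogenin, a transmembrane protein of the immunoglobulin superfamily, and the question was whether its loss alters the Hox genes used at the change from trunk to tail. Neither litters nor the number of embryos per library are named, and the sources used here do not give the deleted part of Prtg. Libraries bear the genotype and the 2 numbers of their deposited column, such as KO 1-3. The first number, whose meaning is unknown here, is referred to as column set. The 5 WT and Het libraries are called controls, and the control mean is the mean of the WT and the Het mean.

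Total counts were 16874860 to 17511964 reads per library. Prtg itself was at 317 and 386 CPM (reads scaled by library depth) in WT, 240.5 to 281.6 in Het and 237 to 268 in KO, so its level overlapped between Het and KO. For Prtg the log2 difference of KO minus Het was -0.03 ± 0.09 (SE, edgeR adjusted p = 0.932). That of KO minus WT was -0.47 ± 0.10 (edgeR adjusted p = 0.148). KO 1-3 stood apart from the other KO libraries. The variance between it and KO 2-2 or KO 2-3 was 21.5 and 24.6 times that of counting, against 4.55 to 9.83 times for the other pairs of 1 genotype. Meox1, a somite gene, was at 92.5 CPM in KO 1-3 and at 139.6 to 165.0 CPM elsewhere. Xist, the RNA of the inactive X chromosome, was high in WT 1-2, Het 1-1, Het 2-4 and KO 1-3 and low in the other 4 libraries, so the 3 libraries of column set 1 were all female and sex and column set overlap in part. Among genes of tissue in front of the cut, Otx2, Six3 and Nkx2-5, of the forebrain and heart, were at 0.234 CPM or less in every library, and Egr2, a hindbrain gene, had 0 reads. The heart gene Myl7 was at 0.468 to 1.26 CPM and the forelimb and heart gene Tbx5 at 1.72 to 4.30 CPM. Cdx2, a tailbud gene, was at 113 to 223 CPM.

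Promoters are shown for Hoxd10, Hoxd12 and Hoxd13, which were called lower in KO, and for Hoxd8, which was not, as a contrast. Each is the 250 bases before the RefSeq transcript start (GRCm38.p6, + strand), and none of these 4 windows holds an annotated exon in GENCODE M21. They lie at chr2:74704365-74704614 for Hoxd8, chr2:74691641-74691890 for Hoxd10, chr2:74674763-74675012 for Hoxd12 and chr2:74667975-74668224 for Hoxd13. Capitals mark matches, on either strand, to 4 short motifs, namely CAGAC (the core of the SMAD box), GGCGCC (a GC-rich SMAD motif), TTTATNG (similar to CDX sites) and TGATNNA (similar to PBX-HOX sites).
Hoxd8: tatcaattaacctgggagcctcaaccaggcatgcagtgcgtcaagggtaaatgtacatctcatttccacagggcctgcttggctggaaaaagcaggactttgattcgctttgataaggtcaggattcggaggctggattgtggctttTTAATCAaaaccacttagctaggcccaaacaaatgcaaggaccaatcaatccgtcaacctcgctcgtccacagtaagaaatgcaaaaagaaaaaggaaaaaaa
Hoxd10: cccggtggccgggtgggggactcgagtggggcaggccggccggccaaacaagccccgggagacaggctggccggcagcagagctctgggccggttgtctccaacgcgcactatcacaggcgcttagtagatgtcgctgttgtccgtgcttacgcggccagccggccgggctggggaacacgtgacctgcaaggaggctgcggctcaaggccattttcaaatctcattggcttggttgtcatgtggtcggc
Hoxd12: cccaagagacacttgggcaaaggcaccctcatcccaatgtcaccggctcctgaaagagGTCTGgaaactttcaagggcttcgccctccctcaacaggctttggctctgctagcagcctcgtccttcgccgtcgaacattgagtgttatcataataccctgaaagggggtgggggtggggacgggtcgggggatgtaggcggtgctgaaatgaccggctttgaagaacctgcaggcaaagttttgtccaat
Hoxd13: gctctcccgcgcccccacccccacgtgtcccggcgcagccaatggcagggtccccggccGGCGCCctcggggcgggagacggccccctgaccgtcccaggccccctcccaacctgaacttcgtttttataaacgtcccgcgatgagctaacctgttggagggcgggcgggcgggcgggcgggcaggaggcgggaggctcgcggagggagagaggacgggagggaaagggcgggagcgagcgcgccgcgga
For Hoxd11, which has 2 windows, only the one nearest the start of its annotated span was searched and is meant below. CAGAC was found in the Hoxd12 window, read there as GTCTG, and in none of the searched windows of the other 8 members. It was present in 42.2% of 32851 promoter windows of the same length. GGCGCC was found once in the Hoxd13 window and once in that of Hoxd3, and 3 times in that of Hoxd1, against 9.59% of all windows with a match. TTTATNG was found in the Hoxd4 window (9.81% of all windows) and TGATNNA in the Hoxd8 window (28.1% of all windows). None of these 4 strings was found in the searched windows of Hoxd9, Hoxd10 or Hoxd11. The windows differed in composition, with 74.4% G and C and 31 CpG pairs for Hoxd13, 65.6% and 20 for Hoxd10, 55.6% and 10 for Hoxd12, 44.8% and 2 for Hoxd11 and 44.4% and 6 for Hoxd8. The median window had 52.4% and 6. No motif was found in the searched windows of more than 1 of the 4 genes from Hoxd10 to Hoxd13, which says only that these letters are absent from these windows.

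All 9 genes had reads and passed the filter on low counts, which kept 16262 genes. Levels that compare genes are given as FPKM, here CPM divided by exonic length in kilobases. In WT the highest level was that of Hoxd9, which acts in the lumbosacral spine, at 28.0 and 31.2 FPKM. It was followed by Hoxd1, known for its part in sensory neurons, at 22.3 and 26.1 FPKM, and by Hoxd4, which acts at the border of hindbrain and neck, at 19.7 and 19.4 FPKM. Hoxd10, which acts in the lumbosacral spine and in hindlimb motor neurons, came next at 18.04 and 12.9 FPKM. Hoxd8 (9.87 and 12.8 FPKM), Hoxd11 (12.8 and 6.08 FPKM) and Hoxd13 (10.6 and 6.33 FPKM) overlapped in WT. Hoxd3, which acts in the first neck vertebrae, was at 5.85 and 5.74 FPKM, and Hoxd12, a limb patterning gene, was lowest at 1.11 and 0.415 FPKM. With all exonic bases as the length, the level therefore did not fall evenly along the cluster: it peaked at Hoxd9 and was lowest at the gene next to the 5′ end. Which gene peaks depends on how reads on shared exons were counted, as given below.

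**Figure D1:**
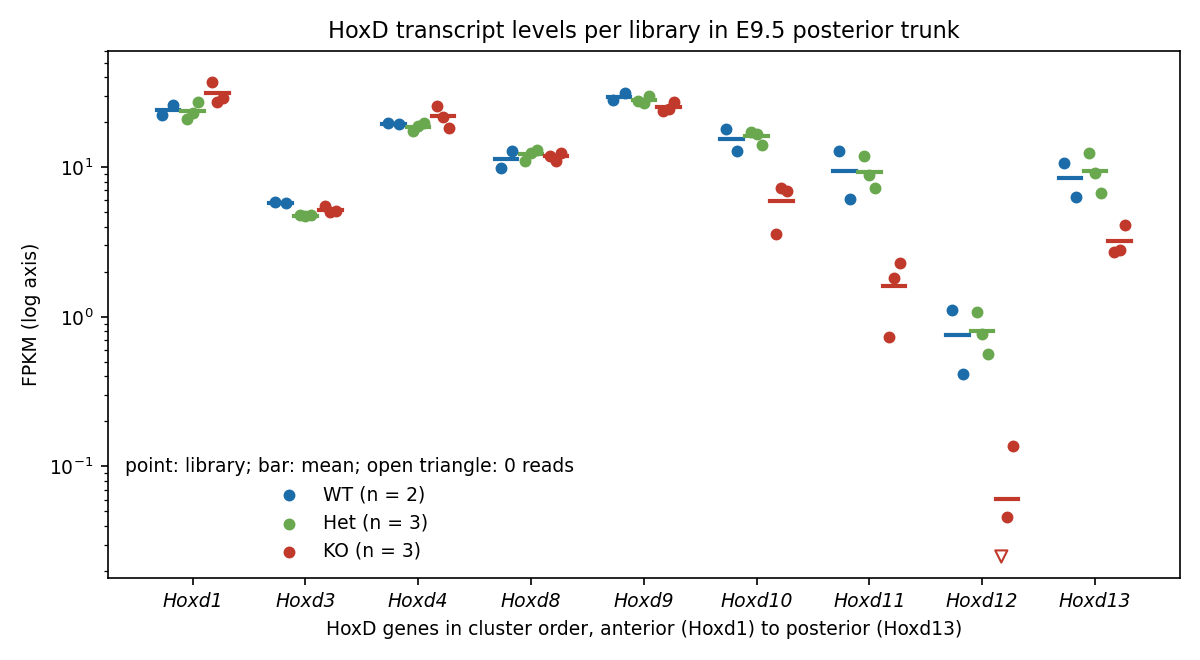
FPKM (log axis) of the 9 HoxD genes in cluster order in each WT, Het and KO library, with bars at the group means and an open triangle for a library with 0 reads. From Hoxd10 on, the 3 KO libraries lie below all WT and Het libraries, while at Hoxd3, Hoxd4, Hoxd8 and Hoxd9 the groups overlap.

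In Het the order was the same, except that Hoxd13 (mean 9.39 FPKM) and Hoxd11 (mean 9.31 FPKM) changed places within overlapping ranges. In KO it differed. Hoxd1 came first at a mean of 31.2 ± 5.28 FPKM, then Hoxd9 at 25.2 ± 2.02, Hoxd4 at 21.9 ± 3.63 and Hoxd8 at 11.8 ± 0.691, with overlap among the first 3 between neighbours. Hoxd10 had dropped below Hoxd8 to 5.92 ± 2.02 FPKM, and Hoxd11, at 1.61 ± 0.806 FPKM, lay below Hoxd13, at 3.20 ± 0.772 FPKM, in all 3 KO libraries.

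Shared exons touch the levels of the anterior members. In GENCODE M21, whose exonic lengths equal the deposited ones for all 9 genes, 37.2% of the exonic bases of Hoxd3 and 47.7% of those of Hoxd4 are shared with no other gene in the deposited table. Hoxd3 shares 2225 bases and Hoxd4 shares 1154 with Gm28230, they share 388 with each other, and each shares 347 with Hoxd3os1 on the other strand. The sources used here do not say how reads on shared bases were counted, and the kit named for the libraries has no strand marking. With all counts of a gene divided by its bases that are not shared, Hoxd4 would stand first in every genotype. Its mean would be 41.0 FPKM in WT, 39.1 in Het and 45.8 in KO, and Hoxd3 would move from rank 8 to rank 5 in WT. Such levels hold only if no reads on shared bases were counted, and are too high otherwise. This length was chosen after seeing the data. Hoxd11 (89.2% not shared) and Hoxd10 (94.3%) overlap only Gm28309, and Hoxd1, Hoxd8, Hoxd9, Hoxd12 and Hoxd13 share no exonic base.

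Without an intact Prtg allele, transcripts of the 4 genes from Hoxd10 to Hoxd13 were called lower against the control mean, and none of the 5 genes on their 3′ side was called in either direction. Hoxd11, which with its paralogues patterns the lumbosacral spine, the kidney and the forearm, differed most among the well-counted members. It had 53.7 and 25.6 CPM in WT, 49.9, 37.4 and 30.4 in Het, and 3.06, 7.61 and 9.70 in KO. The lowest WT or Het library was 2.64 times the highest KO library, and the mean of the 5 control libraries was 5.80 times that of KO. The log2 difference was -2.53 ± 0.35 in KO minus the control mean (SE, edgeR adjusted p = 0.0159), -2.53 ± 0.37 against Het (edgeR adjusted p = 0.0334) and -2.54 ± 0.39 against WT (edgeR adjusted p = 0.0554), so Hoxd11 fell in the first 2 comparisons. As the tissue is a mixture, fewer cells with a transcript and less of it per cell cannot be told apart.

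Hoxd10 had 32.8 and 23.4 CPM in WT, 31.3, 30.5 and 25.6 in Het, and 6.54, 13.2 and 12.5 in KO. KO 1-3 was the lowest, with the highest KO library at 2.02 times its level, and all 3 lay below the 5 controls. Hoxd10 fell against the control mean (-1.41 ± 0.21, edgeR adjusted p = 0.0183) and against Het (-1.44 ± 0.23, edgeR adjusted p = 0.0407), and its value against WT was -1.38 ± 0.24 (edgeR adjusted p = 0.0897).

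Hoxd13, which shapes digits, genitalia and the end of the gut, had 26.4 and 15.7 CPM in WT, 30.7, 22.6 and 16.7 in Het, and 6.77, 6.91 and 10.2 in KO. The groups did not overlap, although KO 2-3 and WT 2-1 differed only 1.55-fold. Hoxd13 fell against the control mean (-1.48 ± 0.24, edgeR adjusted p = 0.0335) and against Het (-1.55 ± 0.26, edgeR adjusted p = 0.0487), and its value against WT was -1.40 ± 0.28 (edgeR adjusted p = 0.141).

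Hoxd12 was counted from few reads, 48 and 18 in WT, 46, 33 and 25 in Het, and 0, 2 and 6 in KO. For the highest KO library the 95% Poisson interval was 2.20 to 13.1 reads, and for the lowest WT library it was 10.7 to 28.4 reads, so these neighbours overlap by counting error alone. By the same interval the 0 reads of KO 1-3 reach up to 3.69 reads or 0.217 CPM, and by the simpler limit of 3 reads for a count of 0 up to 0.177 CPM. Such limits cover counting error only, since PCR copies are not separate molecules. Hoxd12 fell against the control mean (-3.61 ± 0.64, edgeR adjusted p = 0.0476). Its value against Het was -3.65 ± 0.68 (edgeR adjusted p = 0.0711) and against WT -3.57 ± 0.72 (edgeR adjusted p = 0.142), and with so few KO reads these fitted folds depend on the model.

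The 5 genes on the 3′ side passed the test in no comparison. Hoxd9 had 59.7 and 66.7 CPM in WT, 58.7, 57.2 and 64.2 in Het, and 50.5, 52.2 and 58.7 in KO. The KO and the other libraries of Hoxd9 overlapped, and its KO minus WT value was -0.23 (95% interval -0.43 to -0.04, edgeR adjusted p = 0.637). Hoxd8 was at 27.1 and 35.2 CPM in WT, 30.4, 34.3 and 35.6 in Het, and 32.8, 30.3 and 34.04 in KO, with a KO minus WT value of 0.06 (95% interval -0.21 to 0.33). The interval of Hoxd8 spans 0, and that of Hoxd9 lies below 0, though it takes no account of the number of genes tested.

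Hoxd1 differed in the other direction without passing the test. It had 41.6 and 48.7 CPM in WT, 39.2, 42.6 and 50.5 in Het, and 69.2, 50.8 and 54.1 in KO. All 3 KO libraries lay above the other 5, but KO 2-2 exceeded Het 2-5 by a narrow margin and KO 1-3 was far above both. The KO minus control mean value was 0.38 ± 0.11 (SE, edgeR adjusted p = 0.247). With no filter on low counts it was 0.37 and was called (edgeR adjusted p = 0.00755), a setting in which 1.07% of genes were called higher.

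Hoxd4 had 58.2 and 57.1 CPM in WT, 51.1, 55.2 and 58.6 in Het, and 75.3, 64.1 and 53.9 in KO. KO 2-3 lay among the other genotypes, and the KO minus control mean value was 0.20 (95% interval -0.02 to 0.41). Hoxd3 was the one member whose Het libraries lay below all others, at 19.97, 19.7 and 20.02 CPM, against 24.5 and 24.0 in WT and 23.2, 21.01 and 21.3 in KO. The share of all tested genes with this order of Het was not counted, so no weight is put on it. For Hoxd3 the Het minus WT value was -0.29 ± 0.10 (SE, edgeR adjusted p = 1.00), and its reads are subject to the shared exons given above.

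By count, 4 of the 9 genes were called lower and 0 higher in KO against the control mean, where 0.258% of the tested genes were called lower, 0.0738% higher and 0.332% in either direction. Against Het alone 3 of 9 were called lower, with a background of 0.129% lower, 0.0615% higher and 0.191% in either direction, and Hoxd12 was the 1 posterior member not called. Against WT alone edgeR called 0 of 9, with a background of 0.0369% lower, while 6 of 9 had an unadjusted p under 0.05 (7.19% of the 16262 tested genes). DESeq2 called 4 of 9 lower against WT, with a background of 0.400% lower in that test. The KO libraries lay below all others for 4 of 9 genes (4.41% of the tested genes) and above all others for 1 of 9 (4.21%). The median over the 9 genes was -0.20 in KO minus the control mean, with a range of -3.61 to 0.38, beside a median of 0.01 over all genes tested. These comparisons share KO libraries and are not independent. On simulated data the share of false calls exceeded the nominal one in some comparisons, so calls close to 0.05 are less secure. Such calls were those of Hoxd12 against the control mean (edgeR adjusted p = 0.0476) and Hoxd13 against Het (edgeR adjusted p = 0.0487). In Het against WT 0 of 9 genes were called by edgeR (background 0%) and 0 of 9 by DESeq2 (background 0.00347%). There 1 of 9, Hoxd3, had an unadjusted p under 0.05 (1.80% of the tested genes). Values ran from -0.29 to 0.15, but the 95% intervals of the posterior members were wide, from -0.81 to 0.78 for Hoxd11 and from -1.10 to 1.26 for Hoxd12.

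**Figure D2:**
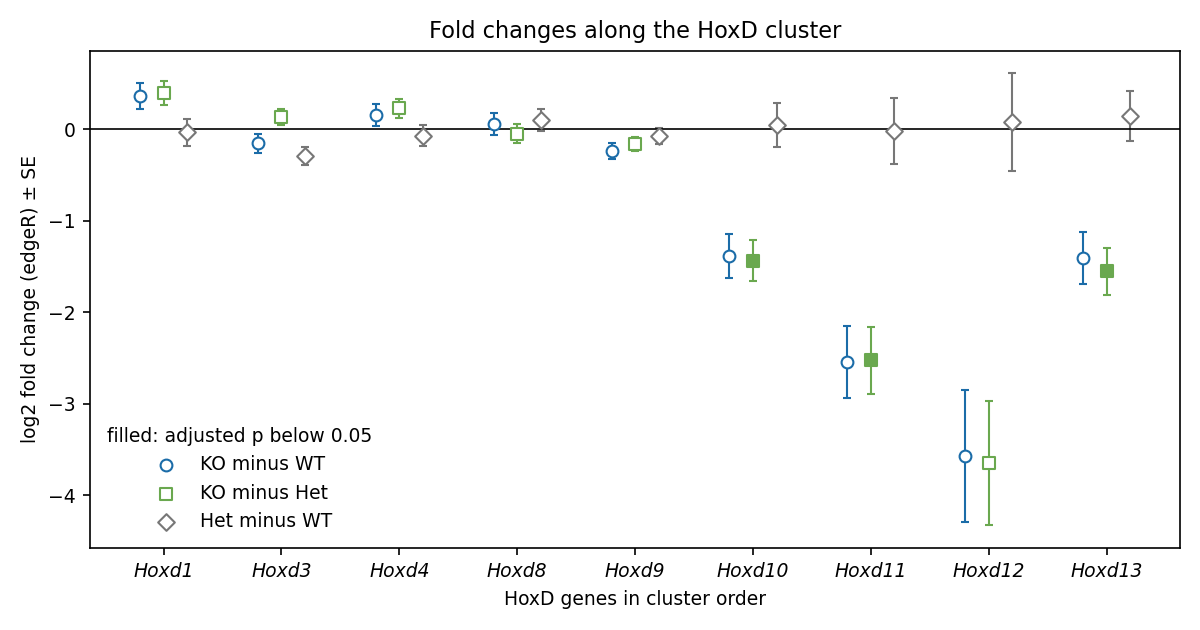
Log2 fold changes with SE (edgeR) of the 9 HoxD genes in cluster order for KO minus WT, KO minus Het and Het minus WT, filled where the adjusted p is below 0.05. In both KO comparisons values lie between -0.23 and 0.40 up to Hoxd9, with Hoxd1 highest, and between -3.65 and -1.38 from Hoxd10 on. Het minus WT stays between -0.29 and 0.15.

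The calls rested on several libraries, while in the 3 KO comparisons the direction of the 4 posterior genes did not change when any 1 library was left out. In KO minus the control mean, leaving out 1 library gave -1.58 to -1.15 for Hoxd10, -2.88 to -2.19 for Hoxd11, -4.91 to -3.06 for Hoxd12 and -1.70 to -1.27 for Hoxd13. The number of members called there was 0 without Het 1-1 or Het 2-4, where 0.0618% and 0.0432% of all tested genes were called lower. It was 1 without KO 2-2 (0.148% of all tested genes) and 2 without KO 1-3 (0.273%), beside 0.258% with all libraries. Without WT 1-2, which left 1 WT library, Hoxd10 was at -1.28 and Hoxd11 at -2.22. Against Het the number called was 0 without Het 1-1 or Het 2-4 (0.0124% of all tested genes called lower in each). It was also 0 without Het 2-5 or KO 2-2 (0.0247% in each), beside 0.129% with all libraries. Against WT it was 2 without KO 1-3 (Hoxd10 and Hoxd11, edgeR adjusted p = 0.0159 and 0.0177). In that fit 0.137% of all tested genes were called lower, beside 0.0369% with all libraries. Without KO 1-3 the KO minus WT values were still -1.13 for Hoxd10 and -2.19 for Hoxd11.

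Within the column sets the difference had the same sign for all 4 posterior genes and was larger in set 1, which holds KO 1-3, WT 1-2 and Het 1-1. On the log2 scale of mean CPM, with 0.1 added, Hoxd11 was -4.04 in set 1 and -1.84 in set 2, Hoxd10 -2.28 and -1.04, and Hoxd13 -2.06 and -1.10. With 1 KO library in set 1 there is no test within it. Hoxd1 was 0.78 in set 1 and 0.15 in set 2. With column set as a term in the fit, Hoxd12 was at -3.49 against the control mean and lost its call (edgeR adjusted p = 0.0546), and with sex as a term it was at -3.38 and did too (edgeR adjusted p = 0.0612). It also lost this call with a filter of CPM of at least 1 in at least 2 libraries (edgeR adjusted p = 0.0505). Among the fits without 1 Het or KO library, Hoxd12 was called only without KO 2-3 (edgeR adjusted p = 0.0451). Against Het, the term for sex ended the calls of Hoxd10, at -1.44 with it and without it, and of Hoxd13, at -1.38 with it and -1.55 without (edgeR adjusted p = 0.0517 and 0.0637).

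**Figure D3:**
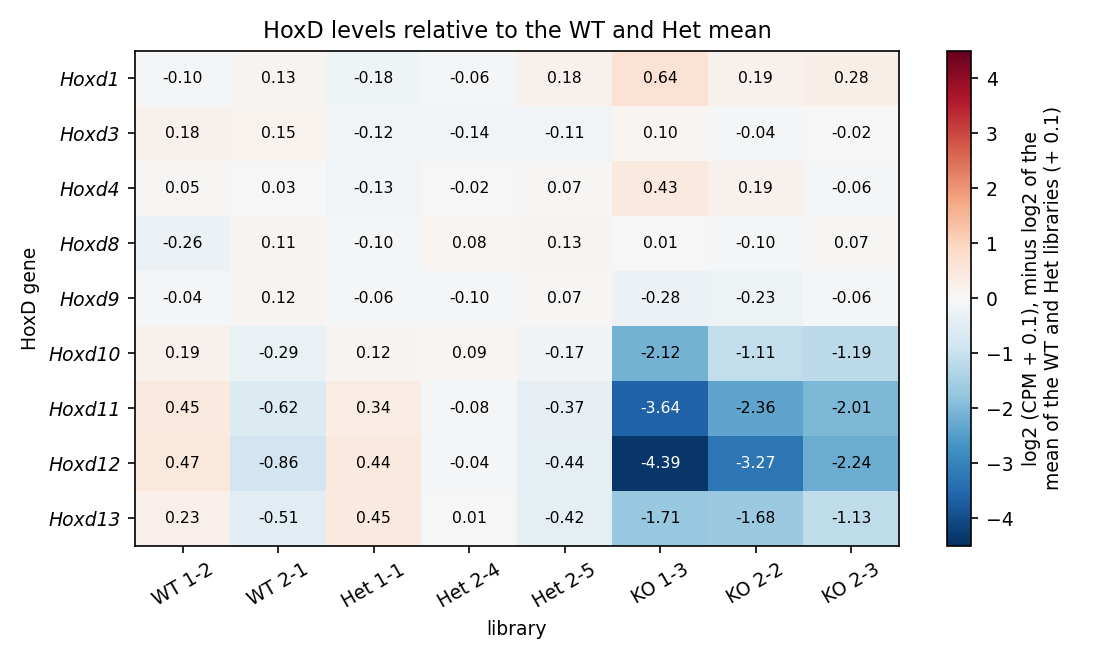
Log2 of CPM (with 0.1 added) of each HoxD gene in each library, minus log2 of the mean of the 5 control libraries. The KO columns run from -4.39 to -1.11 in the 4 posterior rows and from -0.28 to 0.64 in the 5 rows above, and KO 1-3 is lowest in each posterior row.

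The 4 posterior genes also ranked the controls in nearly the same order. For Hoxd10, Hoxd11 and Hoxd12 the libraries ranked in the order WT 2-1, Het 2-5, Het 2-4, Het 1-1 and WT 1-2, from low to high, and for Hoxd13 the last 2 changed places. Between the highest and the lowest of these 5 libraries, Hoxd10 differed 1.40-fold, Hoxd11 2.10-fold, Hoxd12 2.66-fold and Hoxd13 1.95-fold. The others differed less there, by 1.15-fold for Hoxd4, 1.16-fold for Hoxd9, 1.25-fold for Hoxd3, 1.29-fold for Hoxd1 and 1.31-fold for Hoxd8. The lower pair, WT 2-1 and Het 2-5, were the male libraries of the 5. They were also low in the embryonic globin gene Hbb-bh1, at 832 and 835 CPM against 1190 to 1492 in the other 3. They were high in the tailbud gene T, at 152.9 and 140.2 CPM against 114 to 132.5. Among the other tailbud markers, Nkx1-2, Cdx2, Wnt3a and Fgf17 were also higher in this pair. Fgf8 was highest in WT 2-1 at 28.65 CPM, but at 24.85 CPM in Het 2-5 and 24.67 CPM in Het 2-4, which is no difference. Evx1 was likewise highest in WT 2-1, at 70.7 CPM, but at 61.03 CPM in Het 2-5 and 61.02 CPM in WT 1-2. Sp5 went the other way in Het 2-5, the lowest of the 5 at 15.24 CPM. The part of sex, stage or blood content in this spread was not tested.

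Across all 8 libraries the log2 CPM of the posterior genes ran in parallel, with Pearson r of 0.991 between Hoxd10 and Hoxd11, 0.977 between Hoxd11 and Hoxd12 and 0.992 between Hoxd12 and Hoxd13. The r between Hoxd10 and Hoxd9, its neighbour on the 3′ side, was 0.672, and that between Hoxd11 and Hoxd1 was -0.920. These 8 points share the split by genotype, which sets much of each value, so they are given as a description. The tested genes with the pattern most like Hoxd11 over the 8 libraries were Hoxa11os (r = 0.997), Hoxc11 (r = 0.991) and Hoxd10. Those most like Hoxd10 were Chd3 (r = 0.996), Hoxd11 and Mfap4 (r = 0.990), and those most like Hoxd13 were Cd83 (r = 0.995), Hoxd12 and Rhoc (r = 0.981). For Hoxd12 they were Hoxd13, Cd83 (r = 0.985) and Tmem150c (r = 0.984). Hoxd9 was most like Ubtd1 (r = 0.962), Hoxc9 (r = 0.960) and Mrps6 (r = 0.959), Hoxd8 most like Ubl5 (r = 0.976), and Hoxd4 most like Elovl6 (r = 0.986). Hoxd1 was most like Paip2 (r = 0.985), and Hoxd3 most like Gm33148 (r = 0.977). These partners were picked as the highest r among all tested genes over only 8 libraries. Members that were not called had partners with a high r too, so no weight is put on the partners.

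Ratios within a library do not depend on scaling between libraries. Hoxd10 to Hoxd13 supplied 35.4% and 22.1% of all HoxD reads in WT, 36.5%, 30.7% and 24.4% in Het, and 6.13%, 11.3% and 12.8% in KO. The KO shares were all below the others. The CPM summed over the 9 genes was 297 to 327 in WT and Het and 246 to 267 in KO, and that of the 5 genes from Hoxd1 to Hoxd9 was 199 to 232 and 218 to 251, which overlap. The step between Hoxd9 and Hoxd10, as log2 of their FPKM ratio, was -1.27 to -0.63 in WT and Het and -2.71 to -1.75 in KO. The step before it, between Hoxd8 and Hoxd9, was 1.10 to 1.502 in WT and Het and 0.98 to 1.15 in KO, which overlap. Hoxd13 and Hoxd11 moved apart: Hoxd13 over Hoxd11 was -0.26 to 0.06 in WT and Het, where the pair had similar levels in either order, and 0.62 to 1.91 in KO.

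**Figure D4:**
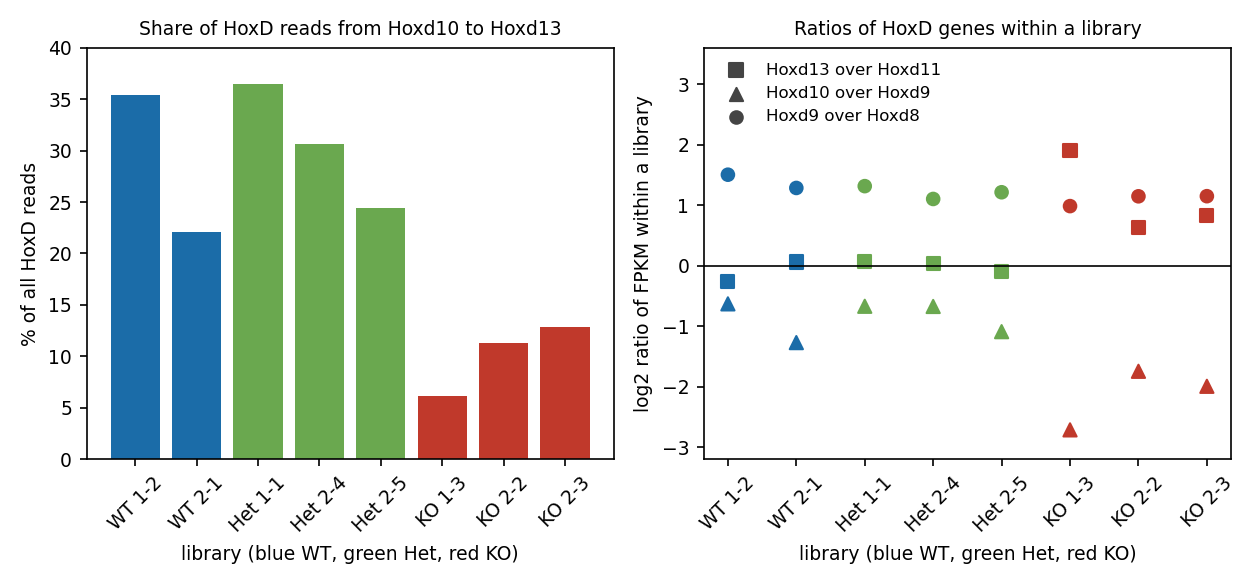
Left, the percentage of all HoxD reads that came from Hoxd10 to Hoxd13 in each library; right, log2 ratios of FPKM between HoxD genes within each library. The share is 22.1% to 36.5% in WT and Het and 6.13% to 12.8% in KO. Hoxd13 over Hoxd11 is 0.62 to 1.91 in KO and -0.26 to 0.06 in WT and Het, where the 2 genes are nearly level.

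Transcripts that lie between or beside the members were compared for the same pattern, and none was called. Evx2, a homeobox gene on the other side of Hoxd13, had 3.97 and 2.63 CPM in WT, 3.05 to 4.10 in Het and 1.49 to 2.95 in KO. Its KO minus control mean value was -0.52 ± 0.26 (SE, edgeR adjusted p = 0.450), and KO overlapped the other genotypes. Gm28309, a transcript that overlaps Hoxd11 and Hoxd10, had 16 and 5 reads in WT, 20, 9 and 11 in Het and 2, 4 and 2 in KO (-2.10 ± 0.61, edgeR adjusted p = 0.233). Gm14396, between Hoxd10 and Hoxd9, was at -0.93 ± 0.34 (SE, edgeR adjusted p = 0.322). Hoxd3os1 had 6.19 and 5.61 CPM in WT, 4.28 to 5.51 in Het and 2.59 to 3.80 in KO, without overlap of KO and the rest (-0.68 ± 0.18, edgeR adjusted p = 0.200). Haglr, an antisense RNA between Hoxd3 and Hoxd1, was at -0.00 ± 0.11, and beyond the cluster Mtx2 was at -0.23 ± 0.08 (edgeR adjusted p = 0.292) and Lnpk at -0.16 ± 0.09. Of 13 flanking and antisense genes tested, 0 were called by edgeR in any comparison.

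The other clusters are set beside HoxD by paralogue group, the genes at the same position in each cluster. In group 11, KO minus the control mean was -2.11 ± 0.20 for Hoxa11, -2.73 ± 0.30 for Hoxc11 and -2.53 ± 0.35 for Hoxd11. In group 10 it was -0.88 ± 0.13 for Hoxa10, -1.48 ± 0.26 for Hoxc10 and -1.41 ± 0.21 for Hoxd10. All of these fell (edgeR adjusted p from 0.00188 to 0.0461). In group 13 Hoxa13 was at -0.96 ± 0.21 and Hoxc13 at -1.09 ± 0.56, short of the threshold (edgeR adjusted p = 0.111 and 0.462), beside -1.48 ± 0.24 for Hoxd13. Thus 4 of 6 tested posterior genes of the other clusters were called lower, against 0.258% of all tested genes, with a median of -1.28. Hoxb13 and Hoxc12 did not pass the filter. This list and those below were chosen with earlier results of these data known, so their counts are not independent findings. In group 9 Hoxb9 rose by 0.48 ± 0.07 (SE, edgeR adjusted p = 0.0159), whereas Hoxd9 was at -0.20 ± 0.07, Hoxc9 at -0.21 ± 0.07 and Hoxa9 at -0.07 ± 0.07. Hoxb9 was the 1 called gene of 13 tested in groups 5 to 9 of the other clusters, and of 9 in groups 1 to 4 edgeR called 0.

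**Figure D5:**
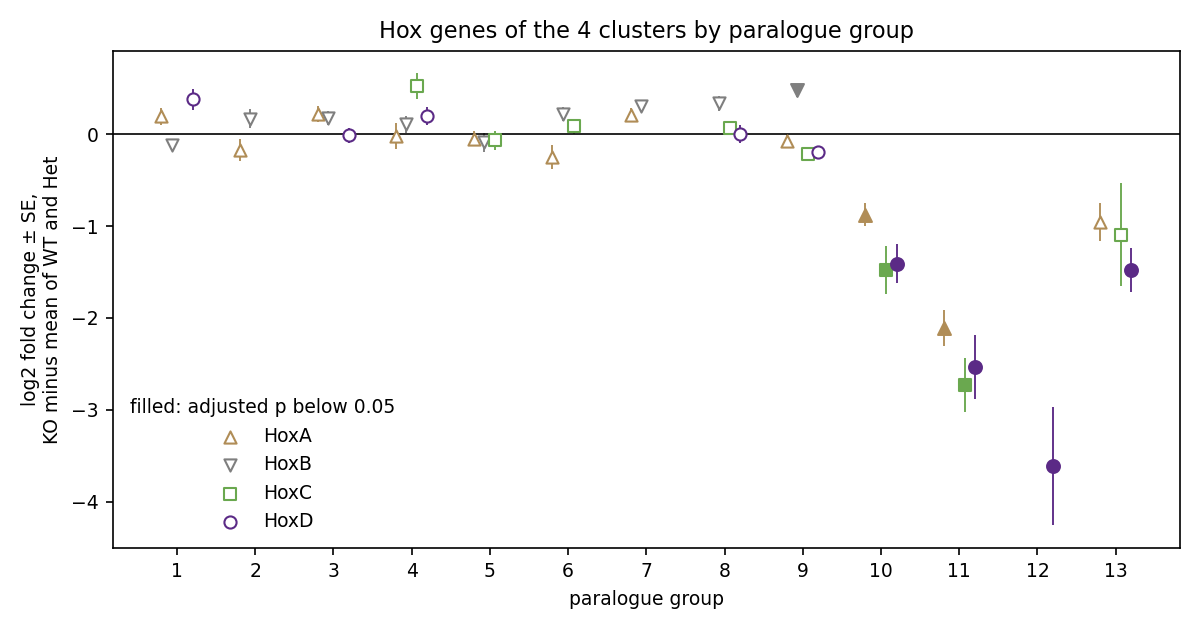
Log2 fold change with SE for KO minus the control mean of each tested Hox gene, by paralogue group and cluster, filled where the edgeR adjusted p is below 0.05. Groups 1 to 9 lie between -0.25 and 0.52, and groups 10 to 13 between -3.61 and -0.88.

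Of all tested genes, 0.258% were called lower in KO against the control mean and 0.0738% higher. Among 15 tested genes of GDF11 and SMAD2 signalling, 3 fell in this comparison and 0 rose. They were Fst, which encodes the GDF11-binding protein follistatin (-1.87 ± 0.12), Pmepa1, a feedback inhibitor (-2.14 ± 0.22), and Skil, a SMAD corepressor gene (-0.43 ± 0.07, edgeR adjusted p = 0.0426). Among 15 tested axial regulators of Hox genes, 1 rose, Nr6a1, a nuclear receptor gene of the trunk stage (0.69 ± 0.09, edgeR adjusted p = 0.0108), and 0 fell. The median over these regulators was 0.13 and over the signalling genes -0.17, beside 0.01 for all genes tested.

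The summed level of 1 marker list did not overlap between KO and the controls. Among single tested genes, 4.41% had all KO libraries below the others. The 7 markers of hindlimb and lateral plate summed to 414 to 427 CPM in WT, 417 to 449.6 in Het and 322 to 356 in KO, and none was at 0 in any library. Of these 7, 3 fell in KO against the control mean, where 0.258% of all tested genes fell. The edgeR adjusted p was 0.0395 for Tbx4 (-0.93 ± 0.16), 0.0281 for Pitx1 (-0.47 ± 0.07) and 0.0426 for Wt1 (-1.30 ± 0.22). Tbx4 and Pitx1 specify the hindlimb, and Wt1 regulates kidney and mesothelium. Foxf1, a marker of the visceral lateral plate, was at 0.27 ± 0.14. The part of this tissue in the HoxD values was not tested. The summed levels of the tailbud, intermediate mesoderm, somite, neural tube, erythroid, endothelial and yolk sac markers overlapped between KO and the other libraries. For intermediate mesoderm the overlap was narrow, with KO at 95.85 to 124.3 CPM and the highest control at 97.54 CPM. All 5 of its genes were above 0 in KO minus the control mean, and none was called.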

How the data were processed

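The authors deposited 1 table of raw read counts per gene and library, with gene positions, symbols and exonic lengths. Its 8 columns of FPKM were not used. The submitters' processing notes list cutadapt 1.9.1, HISAT2 2.0.1, HTSeq 0.6.1, GRCm38 and mm10, but neither roles nor order, and the annotation release and strand setting are not stated. Libraries were primed at random after poly(A) selection, per the labels' protocols. Column names give the genotype but no sample number, so columns were assigned to genotypes only, and p-values measure the spread between these libraries, which may be technical.

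Counts were fitted with edgeR 4.0.16 (R 4.3.3), with TMM scaling, its default expression filter and the quasi-likelihood test, in 1 fit of all 8 libraries with a mean per genotype. Calls needed a two-sided Benjamini-Hochberg adjusted p below 0.05 over 16262 genes. CPM and FPKM were computed from the counts with TMM-scaled totals and are given per library or as mean ± SD. Differences are log2 values ± SE, with SE taken from the F statistic. Likeness of patterns is Pearson's r of log2(CPM + 1). The count test was tested on simulated data with known changes; it found larger changes more often than small ones, and in some comparisons the share of false calls exceeded the nominal one. Alternatives used DESeq2 1.42.0, limma 3.58.1, other scalings and filters, terms for column set and sex, and leaving out each library. Promoters are from RefSeq, where all 9 members matched, and exons from GENCODE M21. A planned comparison of the encoded proteins was not made.

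The members and gene lists were chosen with earlier results of these data known. Named genes are the members, the genes most like each, called genes of the lists or those with the smallest p, Prtg, and neighbours of the members.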

Additional observations from a re-analysis of the deposited data

How the results depend on the processing

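The 4 posterior genes kept their direction under every alternative run for the 3 KO comparisons, and scaling by DESeq2 size factors or upper quartiles moved the median of all genes by far less than 0.1. The count of members called in KO against WT, 0, became 4 with DESeq2 (0.545% of all genes in that test called) and 4 with no filter on low counts (0.711%), against 0.0369% in the edgeR test reported. On leaving out 1 Het or KO library it was 0 to 2 (0.0247% to 0.174% of all genes called). Against Het, 3 became 5 with no filter (1.52% of all genes called, against 0.191%), where Hoxd1 was added as higher. It became 1 with sex as a term (0.191%) and 1 with the libraries compared alone (0.0643%). Hoxd13 lost its call with upper-quartile scaling (0.172%) and with a stricter filter, CPM of at least 1 in at least 2 libraries (0.189%), which left 2 members in each. With limma on log2(CPM + 0.1) the count was 4 (0.252%). On leaving out 1 Het or KO library it was 0 to 2 (0.0124% to 0.304%). Against the control mean, 4 became 0 to 4 on leaving out 1 Het or KO library (0.0556% to 0.384% of all genes called, against 0.332%). Otherwise it was 3 to 5, with 3 under the stricter filter (0.358%) or sex as a term (0.375%) and 5 with no filter (1.78%). In Het against WT it was 0 throughout. The cause was not tested.

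Values near 0 changed sign. Hoxd11 in Het minus WT was 0.047 in limma on log2(CPM + 1), 0.050 on log2(CPM + 0.1) and 0.053 with column set as a term, against -0.02. In KO minus the control mean, Hoxd3 was 0.0014 with sex as a term, and Hoxd8 was -0.0013 with column set and -0.025 with sex. Leaving out 1 library gave, in Het minus WT, -0.14 to 0.083 for Hoxd1, -0.074 to 0.30 for Hoxd8, -0.15 to 0.0062 for Hoxd9, -0.17 to 0.31 for Hoxd10, -0.46 to 0.61 for Hoxd11, -0.46 to 0.95 for Hoxd12 and -0.18 to 0.57 for Hoxd13. It gave -0.12 to 0.25 for Hoxd8 in KO minus WT, -0.11 to 0.0023 for Hoxd8 in KO minus Het, and -0.055 to 0.016 for Hoxd3 and -0.086 to 0.10 for Hoxd8 in KO minus the control mean.

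No paired analysis was possible because the columns carry no replicate number of the labels. The column set, which spans the genotypes, was fitted as a term instead, and the 4 members called against the control mean became 3. In that fit 0.400% of all genes were called, against 0.332%. Where leaving out a library left 1 WT library, it was taken to vary like the other groups. The deposited FPKM were not run as an alternative, and a fit of only the libraries compared is the same fit for the control mean. DESeq2 gave no adjusted p for Hoxd12 in KO minus Het. Depth limits Hoxd12 and Gm28309, with under 50 reads per library.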
